A study of Mus musculus with 6 samples.

Results

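The activin and TGF-β genes described here comprise 9 genes, taken by name from the deposited count table: the activin subunit genes Inhba, Inhbb, Inhbc and Inhbe, the activin antagonist Fst, the ligand Tgfb1, its receptors Tgfbr1 and Tgfbr2, and the inhibitory SMAD gene Smad7. All 9 were found among the 34745 genes listed, and all 9 passed the filter on low counts that left 13734 genes for testing. The question was how the levels of these genes differed between livers of mice given an overdose of acetaminophen (APAP) and livers of mice given saline. Bulk RNA-Seq was performed on whole liver of wild-type (WT) mice, with 3 samples per group by the labels. APAP was given at 300 mg/kg and the livers were taken after 12 hours, and the control mice received saline. The methods name male C57BL/6J mice aged 8 to 10 weeks, injected i.p. after a fast of 12 hours that both groups shared. Of these samples, 5 libraries were analysed here, APAP1 and APAP3 (n = 2) and the control libraries WT1, WT2 and WT3 (n = 3), while APAP replicate 2 was not analysed here. The labels do not say that samples came from separate animals, so the p-values measure only the spread between these samples.

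Activins are dimers of inhibin β subunits, and together with TGF-β they belong to a superfamily of secreted factors that bind pairs of serine/threonine kinase receptors and signal through SMAD proteins. Follistatin binds activin and blocks it, and SMAD7 blocks the receptors from within the cell. In liver, Inhbc and Inhbe are produced mainly by hepatocytes, activin A and TGF-β1 restrain hepatocyte proliferation, and TGF-β1 activates stellate cells.

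Each library held between 13378445 and 15976339 counts in all. Levels are given as CPM, the count of a gene relative to a library size normalized by edgeR's TMM method, which divides out differences in library composition. Counts of 3, the floor used for detection, equalled 0.176 to 0.269 CPM, and this floor covers counting error only. The pairs of libraries within a group correlated with r = 0.945 to 0.973 across genes, and none was a repeat of another. Sex-linked genes separated the groups in all 5 libraries, although the methods name male mice. Xist, which silences the inactive X chromosome in female cells, measured 0.764 and 1.73 CPM in the APAP libraries, against 289.6, 914 and 882 CPM in the saline libraries, and the Y-linked gene Ddx3y measured 78.97 and 61.7 CPM in the APAP libraries but no more than 0.0668 CPM in any saline library. A difference between the sexes and a difference between the treatments therefore cannot be told apart for any gene below. A gene said to rise was higher in the APAP libraries than in the saline libraries. The columns were used as labelled, and whether any of them carries the wrong label could not be settled from these files.

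Promoters of 7 of the 9 genes were searched in the RefSeq set used here (GRCm38.p6), and 4 of these are shown. Fst had none in this set, and the promoter of Smad7 was not searched. Inhba, Inhbe and Tgfbr2 are shown because their levels rose, and Inhbc because it lies next to Inhbe on the same strand, 4555 bases away, and did not pass the test. Each sequence runs 5′ to 3′ on the gene's strand from 250 bases before the RefSeq start through 50 bases after it. Capitals mark matches, on either strand, to the SMAD-binding core CAGAC or to the C/EBP-ATF motif TGATGNAA. Motifs did not overlap each other in these sequences.

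Inhba promoter, chr13:16011601-16011900, plus strand:
Inhba: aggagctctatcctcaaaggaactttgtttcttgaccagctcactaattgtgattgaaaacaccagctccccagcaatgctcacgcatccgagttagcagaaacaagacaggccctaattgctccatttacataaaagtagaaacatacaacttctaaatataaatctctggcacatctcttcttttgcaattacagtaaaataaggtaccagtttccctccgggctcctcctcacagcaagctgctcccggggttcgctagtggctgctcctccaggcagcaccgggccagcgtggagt
Inhbe promoter, chr10:127351799-127352098, minus strand:
Inhbe: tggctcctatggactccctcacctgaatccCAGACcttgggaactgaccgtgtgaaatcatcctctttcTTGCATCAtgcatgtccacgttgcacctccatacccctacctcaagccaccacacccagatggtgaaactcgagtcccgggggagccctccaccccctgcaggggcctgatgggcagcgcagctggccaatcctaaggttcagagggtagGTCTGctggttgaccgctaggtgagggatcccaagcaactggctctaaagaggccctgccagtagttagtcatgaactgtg
Inhbc promoter, chr10:127370499-127370798, minus strand:
Inhbc: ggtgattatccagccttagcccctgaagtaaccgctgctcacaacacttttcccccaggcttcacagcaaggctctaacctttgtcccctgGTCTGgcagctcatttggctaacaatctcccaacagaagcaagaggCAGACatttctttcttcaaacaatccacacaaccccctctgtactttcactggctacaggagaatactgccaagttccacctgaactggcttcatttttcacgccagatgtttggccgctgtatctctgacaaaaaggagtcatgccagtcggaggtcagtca
Tgfbr2 promoter, chr9:116175314-116175613, minus strand:
Tgfbr2: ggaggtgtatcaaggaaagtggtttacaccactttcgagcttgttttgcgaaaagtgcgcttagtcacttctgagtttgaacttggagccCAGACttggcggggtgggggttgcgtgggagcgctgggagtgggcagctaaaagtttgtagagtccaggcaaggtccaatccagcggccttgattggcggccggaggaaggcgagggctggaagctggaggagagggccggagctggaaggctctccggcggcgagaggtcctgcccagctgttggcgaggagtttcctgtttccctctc

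The SMAD-binding core matched 2 times in the Inhbc promoter, 2 times in the Inhbe promoter and 1 time in the Tgfbr2 promoter, and it did not match in the promoters of Inhba, Inhbb, Tgfb1 or Tgfbr1. This short core is common, and 49.6% of all 32851 RefSeq promoters of the same length held at least 1 match. The C/EBP-ATF motif matched 1 time, at position −181 from the start in the Inhbe promoter, while 3.97% of all promoters held a match. The AP-1 motif TGANTCA and the cyclic AMP response element TGACGTCA matched in none of the 7 promoters, against 7.81% and 1.79% of all promoters. The RefSeq start of Inhbe lies 76 bases from the start of the gene in the deposited table. These matches describe the letters only.

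Among the activin subunit genes, Inhba and Inhbe were higher in the APAP libraries, whereas Inhbb and Inhbc did not pass the test. Inhba (ENSMUSG00000041324, chr13:16011851-16027211, plus strand), which encodes the βA subunit of activin A, measured 10.3 and 7.05 CPM in APAP1 and APAP3 and 2.60, 2.33 and 1.40 CPM in WT1, WT2 and WT3. Both APAP libraries stood above all saline libraries. The mean was 8.69 ± 2.33 CPM (SD, n = 2) against 2.11 ± 0.627 CPM (SD, n = 3). Inhba rose by 2.05 on the log2 scale (SE 0.38), a fold change of 4.13 with a 95% interval of 2.20 to 7.74 (edgeR quasi-likelihood test, Benjamini-Hochberg adjusted p = 0.0285). This was the largest fitted change among the 9 genes, on a raw count of 21 to 35 per saline library. The call was kept without WT3 and lost when any other single library was left out, with log2 fold changes between 1.75 and 2.28.

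Inhbe (ENSMUSG00000047492, chr10:127349402-127351772, minus strand), which encodes the hepatocyte-enriched βE subunit, measured 40.3 and 55.4 CPM in APAP1 and APAP3 and 15.9, 21.3 and 25.1 CPM in WT1, WT2 and WT3. The groups did not overlap, and the lower APAP library stood clear of the highest saline library. The mean was 47.8 ± 10.7 CPM (SD, n = 2) against 20.7 ± 4.62 CPM (SD, n = 3). Inhbe rose by 1.203 on the log2 scale (SE 0.26), a fold change of 2.30 with a 95% interval of 1.497 to 3.54 (edgeR quasi-likelihood test, Benjamini-Hochberg adjusted p = 0.0424). This call, too, was kept without WT3 and lost when any other single library was left out, with log2 fold changes between 0.95 and 1.42.

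Inhbc (ENSMUSG00000025405, chr10:127356328-127370544, minus strand), the βC subunit gene and tandem neighbour of Inhbe, measured 31.6 and 89.4 CPM in APAP1 and APAP3 and 80.4, 74.9 and 57.3 CPM in WT1, WT2 and WT3. The APAP libraries fell on either side of the saline libraries, APAP1 below all of them and APAP3 above all of them. The fitted log2 fold change was −0.23 (SE 0.43), with a 95% interval of −1.24 to 0.78 (edgeR quasi-likelihood test, Benjamini-Hochberg adjusted p = 0.789). Its direction followed the APAP library used, at 0.34 without APAP1 and −1.18 without APAP3. Exons of the antisense gene Gm47200 overlap those of Inhbc, and with the strand setting not given in the sources used here, reads from both genes cannot be told apart.

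Inhbb (ENSMUSG00000037035, chr1:119415465-119422248, minus strand), which encodes the βB subunit of activin B, measured 8.81 and 22.3 CPM in APAP1 and APAP3 and 4.66, 3.26 and 13.4 CPM in WT1, WT2 and WT3. The groups overlapped, since WT3 stood above APAP1. The fitted log2 fold change was 1.12 (SE 0.65), with a 95% interval of −0.41 to 2.65 (edgeR quasi-likelihood test, Benjamini-Hochberg adjusted p = 0.338). An increase of the size fitted for Inhba or Inhbe lies within this interval, so the spread between libraries did not allow a call in either direction. The log2 fold change was 0.29 without APAP3, 1.64 without APAP1 and 1.97 without WT3, none of them called.

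**Figure D1:**
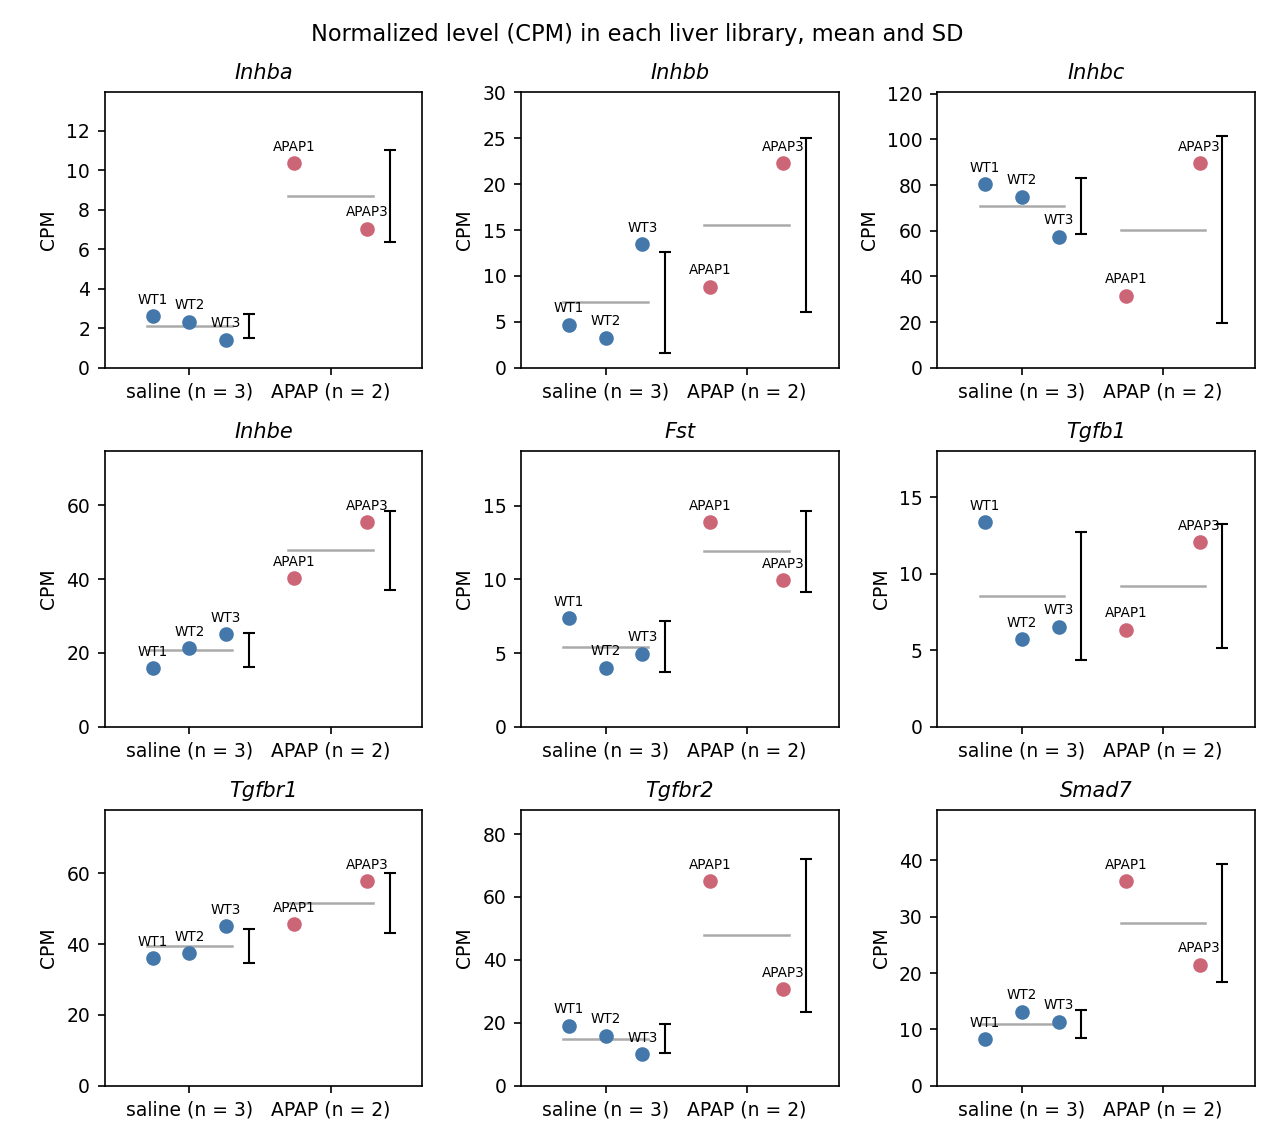
Normalized level (CPM, linear axis from 0) of each of the 9 genes in each library, with blue points for saline and red points for APAP, a grey line for the group mean and a black bar for ± 1 SD. APAP1 and APAP3 both lie above all 3 saline libraries for Inhba, Inhbe, Fst, Tgfbr1, Tgfbr2 and Smad7, and the groups overlap for Inhbb, Inhbc and Tgfb1.

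To set the subunit genes against each other, CPM was divided by the exonic length of each gene in kilobases (CPM per kb), counted within the bounds the deposited table gives. In the saline libraries Inhbc was the most abundant of the 9 genes, at 38.2 ± 6.53 CPM per kb (SD, n = 3), followed by Inhbe at 9.72 ± 2.16 CPM per kb, while Inhbb (1.67 ± 1.296 CPM per kb) and Inhba (1.07 ± 0.317 CPM per kb) were low. In the APAP libraries Inhbc measured 32.6 ± 22.1 CPM per kb (SD, n = 2) and Inhbe 22.4 ± 4.99 CPM per kb. Inhbc and Inhbe were therefore the leading subunit transcripts in both groups. The summed level of the 4 genes was 43.2 and 83.0 CPM per kb in APAP1 and APAP3 and 53.2, 52.4 and 46.5 CPM per kb in WT1, WT2 and WT3, so that the APAP libraries lay on both sides of the saline libraries. Of this sum, Inhbc made up 39.4% and 58.2% in APAP1 and APAP3 and 81.5%, 77.2% and 66.5% in WT1, WT2 and WT3. The share of Inhbe was 43.7% and 31.3% in the APAP libraries against 13.96%, 19.1% and 25.2% in WT1, WT2 and WT3. Neither share overlapped between the groups. These values depended on the length used. With the longest coding transcript in its place, an alternative chosen after seeing the data, Inhbc took 60.1% and 74.2% in the APAP libraries against 79.2% to 90.6% in the saline libraries, and Inhbe took 26.8% and 16.1% against 6.25% to 12.1%, so that the groups again did not overlap. On the exonic length, Inhba took 12.1% and 4.29% in the APAP libraries against 1.52% to 2.47% in WT1 to WT3. These shares are a description without a test, and with 2 libraries against 3 an exact permutation test cannot reach 0.05.

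**Figure D2:**
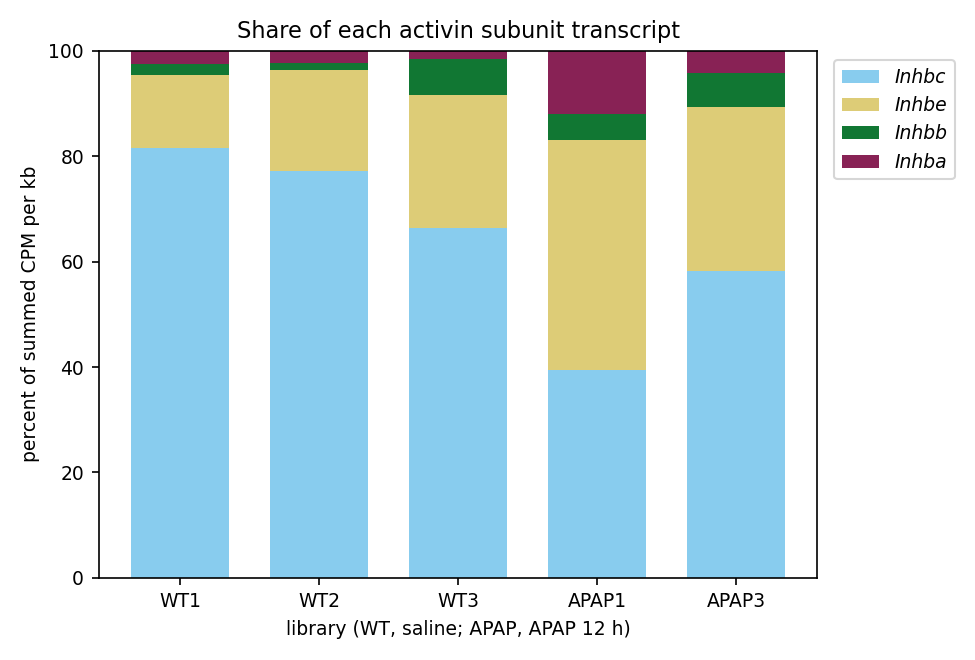
Share (%) of each activin subunit gene in the summed level (CPM per kb) of the 4 subunit genes, as stacked bars for the 5 libraries. Inhbc takes 66.5% to 81.5% in the saline libraries and 39.4% and 58.2% in the APAP libraries, where Inhbe takes 43.7% and 31.3%.

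Fst (ENSMUSG00000021765, chr13:114452262-114458730, minus strand), which encodes follistatin, measured 13.9 and 9.95 CPM in APAP1 and APAP3 and 7.35, 3.99 and 4.94 CPM in WT1, WT2 and WT3. Both APAP libraries stood above the saline libraries, but the lower of them was close to WT1. The fitted log2 fold change was 1.14 (SE 0.34), a fold change of 2.20 with a 95% interval of 1.26 to 3.86, and it did not pass the test (edgeR quasi-likelihood test, Benjamini-Hochberg adjusted p = 0.0956). It met the looser thresholds of an unadjusted P under 0.05 and a fold change of at least 1.5. With edgeR's likelihood ratio test the adjusted p was 0.0475, and with library sizes alone as the scaling it was 0.0384. The adjusted p over all alternatives that kept the 5 libraries was 0.0384 to 0.114. Exons of the antisense gene Gm47040 overlap those of Fst, and reads from both cannot be told apart here.

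Of the TGF-β ligand and its receptors, Tgfbr2 rose, and Tgfb1 and Tgfbr1 did not pass the test. Tgfb1 (ENSMUSG00000002603, chr7:25687002-25705077, plus strand), which encodes the ligand TGF-β1, measured 6.35 and 12.1 CPM in APAP1 and APAP3 and 13.4, 5.71 and 6.55 CPM in WT1, WT2 and WT3. The groups overlapped, and the highest value of all belonged to a saline library. The fitted log2 fold change was 0.11 (SE 0.46), with a 95% interval of −0.98 to 1.21 (edgeR quasi-likelihood test, Benjamini-Hochberg adjusted p = 0.911). Its direction turned when APAP3, WT2 or WT3 was left out, at −0.43, −0.11 and −0.046.

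Tgfbr2 (ENSMUSG00000032440, chr9:116087698-116175363, minus strand), the type II receptor that binds the ligand, measured 64.9 and 30.7 CPM in APAP1 and APAP3 and 19.0, 15.9 and 10.02 CPM in WT1, WT2 and WT3. The groups did not overlap, and APAP1 stood far above APAP3. The mean was 47.8 ± 24.2 CPM (SD, n = 2) against 14.97 ± 4.56 CPM (SD, n = 3). Tgfbr2 rose by 1.68 on the log2 scale (SE 0.39), a fold change of 3.20 with a 95% interval of 1.69 to 6.04 (edgeR quasi-likelihood test, Benjamini-Hochberg adjusted p = 0.0491). The call was kept without APAP3 and lost when any other single library was left out. Without APAP1 the log2 fold change was 1.04, so that library carried much of the difference. The call was also lost with DESeq2's size factors in edgeR's quasi-likelihood fit (adjusted p = 0.0522, within a range of 0.00216 to 0.0522 over the alternatives that kept all libraries).

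Tgfbr1 (ENSMUSG00000007613, chr4:47353222-47414931, plus strand), the type I receptor that phosphorylates the SMAD proteins, measured 45.6 and 57.7 CPM in APAP1 and APAP3 and 35.9, 37.5 and 45.0 CPM in WT1, WT2 and WT3. The groups were separated only by the small gap between WT3 and APAP1. The fitted log2 fold change was 0.39 (SE 0.21), with a 95% interval of −0.12 to 0.89 (edgeR quasi-likelihood test, Benjamini-Hochberg adjusted p = 0.316). On the scale of CPM per kb, Tgfbr1 measured 6.04 ± 0.739 and Tgfbr2 3.13 ± 0.953 in the saline libraries (SD, n = 3), and these levels did not overlap. In the APAP libraries Tgfbr2 measured 9.99 ± 5.07 and Tgfbr1 7.90 ± 1.31 CPM per kb (SD, n = 2), and there the levels overlapped. Tgfbr2 stood above Tgfbr1 in APAP1 only (13.6 against 6.98 CPM per kb). In APAP3 it stayed below Tgfbr1 (6.41 against 8.83 CPM per kb), as in the saline libraries. Whether the receptors differed from each other in their response was not tested.

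Smad7 (ENSMUSG00000025880, chr18:75367529-75395935, plus strand), whose product inhibits the receptors and whose transcription TGF-β signalling induces, measured 36.3 and 21.5 CPM in APAP1 and APAP3 and 8.25, 13.2 and 11.4 CPM in WT1, WT2 and WT3. The groups did not overlap, and APAP1 was again the higher APAP library. The mean was 28.9 ± 10.4 CPM (SD, n = 2) against 10.9 ± 2.48 CPM (SD, n = 3). Smad7 rose by 1.40 on the log2 scale (SE 0.30), a fold change of 2.64 with a 95% interval of 1.60 to 4.36 (edgeR quasi-likelihood test, Benjamini-Hochberg adjusted p = 0.0424). The call was lost when any single library was left out, with log2 fold changes of 0.98 to 1.72.

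Together, 4 of the 9 genes passed the test, all of them higher in the APAP libraries, whereas 3.7% of all genes tested were called higher and 7.23% were called in either direction. At the unadjusted thresholds 5 of the 9 genes were called higher, compared with 12.3% of all genes tested. Both APAP libraries stood above all saline libraries for 6 of the 9 genes, compared with 24% of all genes tested. The 9 genes were chosen with earlier results of these data known, so comparisons with all genes are a description only. No gene of the 9 was called lower by the same test, at the adjusted or the unadjusted p, or by the likelihood ratio test, the exact test or DESeq2. The median log2 fold change of the 9 genes was 1.14, beside 0.03 for all genes tested. With library sizes alone as the scaling, the median over all genes moved to 0.42 and 77.8% of the calls were higher, in place of 51.2%. The members called numbered between 0 and 2 when single libraries were left out, with 0 without APAP1, WT1 or WT2. None of the 4 calls was thus held by every set of 4 libraries.

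**Figure D3:**
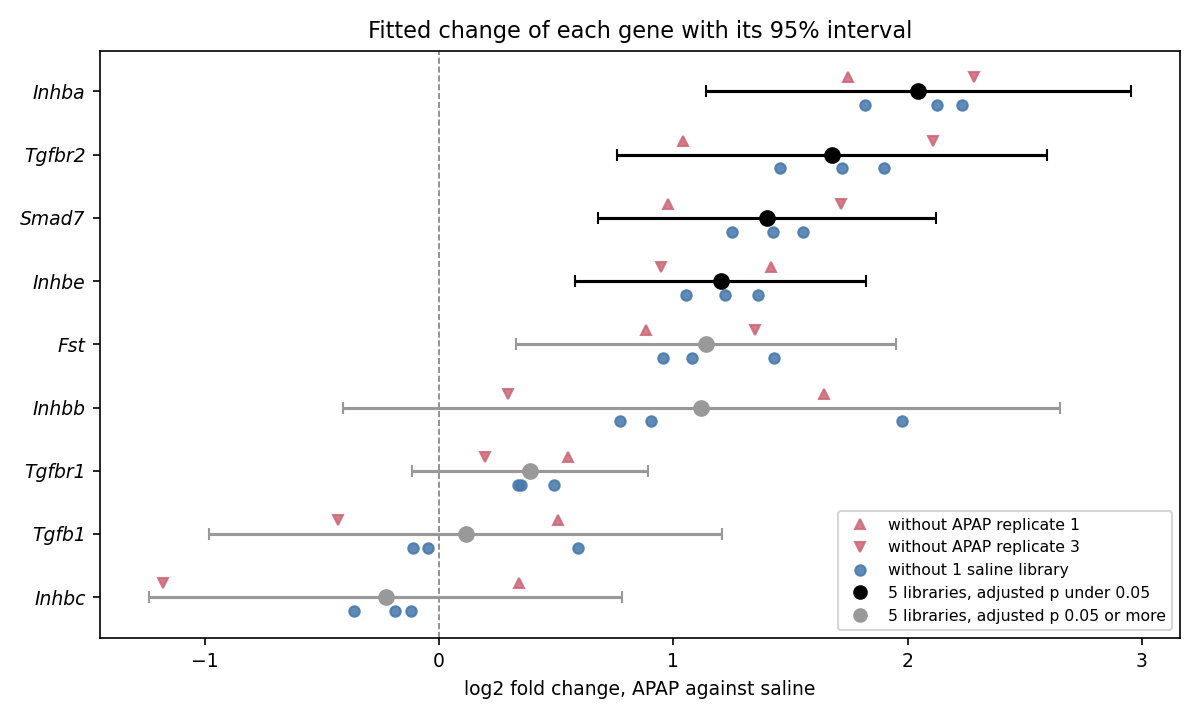
Fitted log2 fold change (APAP against saline) of each of the 9 genes with its 95% interval derived from edgeR's quasi-likelihood test, in order of size, in black for called genes and grey for the others. Red triangles give the value without APAP1 (pointing up) or without APAP3 (pointing down), and blue points the values without 1 saline library. The intervals of Inhba, Inhbe, Fst, Tgfbr2 and Smad7 lie above 0, and Fst did not pass after adjustment over all genes.

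The order of the 9 genes by CPM per kb in the saline libraries was Inhbc, Inhbe, Tgfbr1, Tgfbr2, Smad7, Tgfb1, Inhbb, Fst and Inhba. Only the first 3 steps of this order were free of overlap between neighbouring genes, and from Tgfbr2 downward each gene overlapped the next. In the APAP libraries the order was Inhbc, Inhbe, Tgfbr2, Tgfbr1, Smad7, Inhba, Inhbb, Fst and Tgfb1, and only Inhbe and Tgfbr2 did not overlap as neighbours. Inhba, the lowest of the 9 genes in the saline libraries, reached 4.39 ± 1.18 CPM per kb in the APAP libraries (SD, n = 2). With the longest coding transcript as the length, Inhbc again came first in both groups and Inhba last in both, but Tgfbr1 and Tgfb1 stood above Inhbe in the saline libraries, and Tgfbr1 above Tgfbr2 in the APAP libraries.

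Another 86 genes of the TGF-β superfamily, its regulators and its target genes were read from the same fit, and 73 of them were tested. Of these, 8 were called higher and 0 lower by edgeR's quasi-likelihood test, which is 11% of the 73, beside 7.23% of all genes tested. At the unadjusted thresholds 17 were called higher and 2 lower, beside 1696 higher and 1532 lower of all 13734 genes tested. These lists, too, were chosen with earlier results of these data known. DESeq2 called 1 of the 73 lower. Their median log2 fold change was 0.26. Most of the calls were among 16 tested target genes, of which 5 rose, with a median of 0.79. Id1, an inhibitor of DNA binding induced by BMP signalling, measured 132.6 and 63.7 CPM in the APAP libraries, against 11.4, 14.9 and 18.6 CPM in the saline libraries, and rose by 2.71 on the log2 scale (SE 0.36). Its call was lost without WT2.

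The matricellular genes Cyr61 and Ctgf rose by 2.90 (SE 0.34) and 1.94 (SE 0.34) on the log2 scale. Cyr61 kept its call in every set of 4 libraries, and Ctgf lost it without APAP1, APAP3 or WT2. Junb, an AP-1 transcription factor, measured 35.3 and 96.2 CPM in the APAP libraries, against 15.8, 8.97 and 20.3 CPM in the saline libraries, and rose by 2.13 on the log2 scale (SE 0.48). Without APAP3 this change was 1.22, and the call was kept only without APAP1. Col1a1, a chain of type I collagen, measured 10.2 and 5.13 CPM in the APAP libraries, against 1.43, 2.79 and 1.60 CPM in the saline libraries, and rose by 1.97 on the log2 scale (SE 0.46). Its call was lost in every set of 4 libraries, and its log2 fold change was 1.39 without APAP1. Col1a2, the gene of the other chain of this collagen, overlapped between the groups at 17.3 and 8.65 CPM against 5.08 to 12.5 CPM. Its log2 fold change was 0.47 (SE 0.45), and it did not pass the test. Adjusted p-values of the 5 target genes ran from 0.00666 for Cyr61 to 0.0498 for Col1a1 (edgeR quasi-likelihood test, Benjamini-Hochberg). The most abundant target gene, Fn1, which encodes fibronectin, overlapped between the groups at 1415 and 1954 CPM in the APAP libraries, against 1583, 1166 and 1473 CPM in the saline libraries.

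Of 12 other ligand genes tested, 1 rose (8.33%, beside 7.23% of all genes tested), and the median log2 fold change was −0.13. The likelihood ratio test, the exact test and DESeq2 each called 3 of the 12, of which 1 was lower with DESeq2. Over all 13734 genes these tests called 1835, 1776 and 2093. By the quasi-likelihood test, 2 of the 5 ligands at an unadjusted p under 0.05 were lower. Gdf15, a stress-induced member of the superfamily, measured 18.4 and 36.0 CPM in APAP1 and APAP3 and 2.78, 5.98 and 5.34 CPM in the saline libraries. It rose by 2.52 on the log2 scale (SE 0.41, edgeR quasi-likelihood test, Benjamini-Hochberg adjusted p = 0.0187), and the call was lost without APAP3 or WT2. Gdf2, the gene of BMP9 and the most abundant of these ligands by the mean over all libraries, though below Gdf15 in the APAP mean (21.8 against 27.2 CPM), overlapped between the groups (log2 fold change −0.29, SE 0.30). Among 18 antagonists and activators, 1 rose (5.56%, beside 7.23% of all genes tested). This was Thbs1, whose product thrombospondin-1 can activate latent TGF-β, at 37.0 and 54.9 CPM in the APAP libraries, against 0.896, 3.06 and 2.27 CPM in the saline libraries, a log2 fold change of 4.44 (SE 0.45, edgeR quasi-likelihood test, Benjamini-Hochberg adjusted p = 0.00474). Thbs1 kept its call in every set of 4 libraries. Furin, the proprotein convertase that cleaves TGF-β precursors, had a fitted log2 fold change of 0.45 (SE 0.25) and did not pass the test.

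Among 11 nuclear and ubiquitin regulators, 1 rose (9.09%, beside 7.23% of all genes tested). Tgif1, a transcriptional co-repressor of SMAD proteins, measured 42.1 and 52.4 CPM in the APAP libraries, against 11.8, 12.6 and 12.2 CPM in the saline libraries, and rose by 1.95 on the log2 scale (SE 0.20, edgeR quasi-likelihood test, Benjamini-Hochberg adjusted p = 0.00471). This gap was wide against a narrow spread within the groups, and the call was kept in every set of 4 libraries. The ubiquitin ligase gene Nedd4l overlapped between the groups (log2 fold change −0.40, SE 0.42). No other receptor gene of 9 tested was called by edgeR's quasi-likelihood test, 0 had an unadjusted p under 0.05, and their median log2 fold change was −0.20. The likelihood ratio test, the exact test and DESeq2 called 0 of them as well, and DESeq2 gave 1 an unadjusted p under 0.05. Bmpr2, the most abundant of these receptors, had a log2 fold change of −0.21 (SE 0.19). Of the 7 other SMAD genes, 0 were called and 0 had an unadjusted p under 0.05 by the quasi-likelihood test, the likelihood ratio test, the exact test or DESeq2, and Smad5, the most abundant, had a log2 fold change of 0.34 (SE 0.19).

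**Figure D4:**
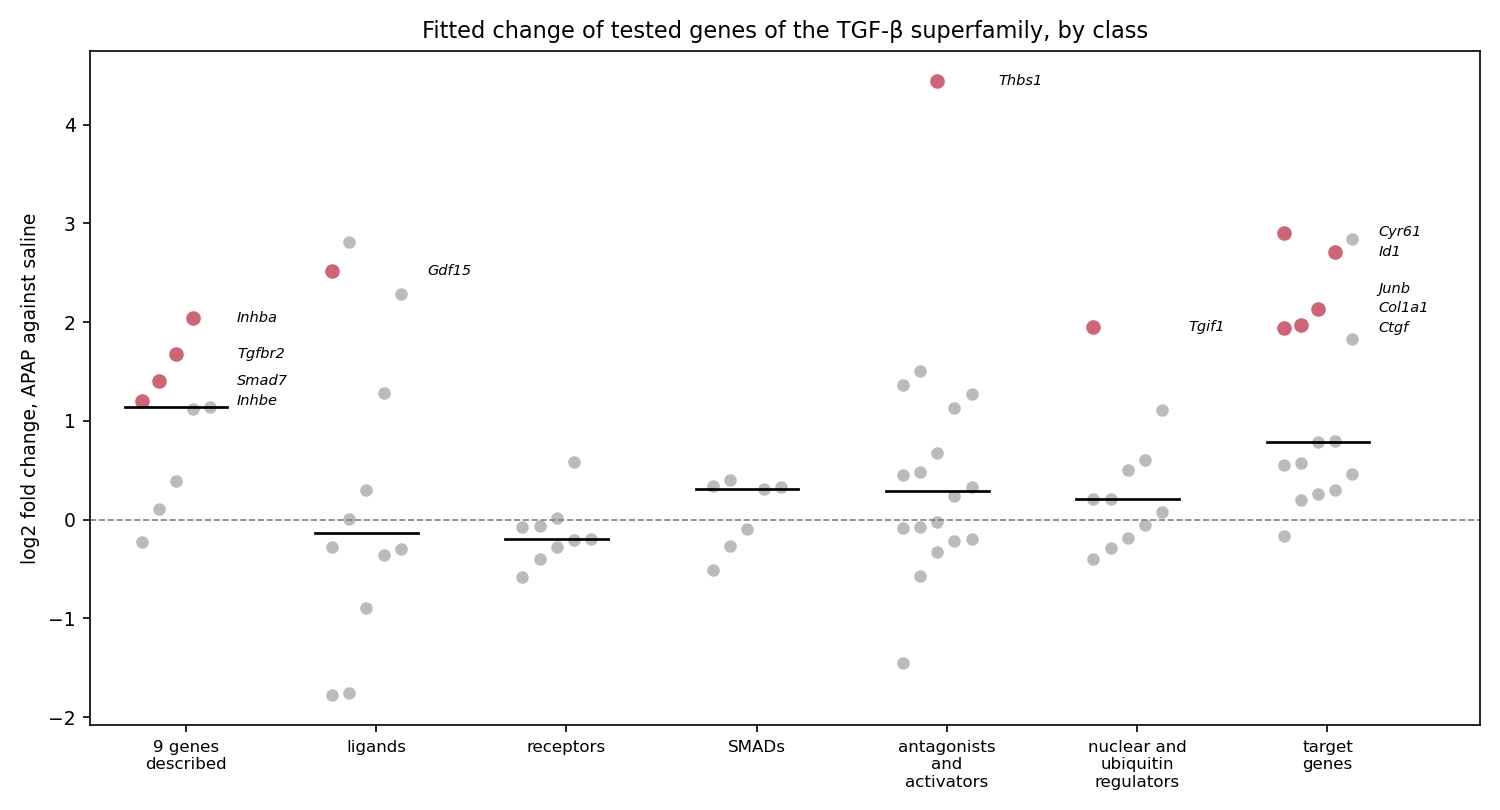
Fitted log2 fold change (APAP against saline) of the 9 genes described and of the 73 other tested genes of the superfamily, one point per gene, grouped by class, with a black line at the median of each class and red, labelled points for genes at an adjusted p under 0.05. The called genes all lie above 0, and 5 of the 8 outside the described genes are target genes, whose median is 0.79.

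Levels of marker genes of liver cell types differed between the libraries as well, and in whole liver a change in the number of cells of a type and a change in the RNA per cell cannot be told apart. Over all 13734 genes tested, 508 (3.7%) were called higher and 485 lower. The summed level of 7 hepatocyte markers was 74688 and 116647 CPM in APAP1 and APAP3 and 119310 to 166768 CPM in the saline libraries. Alb, the gene of albumin, measured 51545 and 89798 CPM against 95101 to 129117 CPM and was not called. Of the 7, 1 was called lower, Apoa2, at 1316 and 1816 CPM against 4722 to 7285 CPM. Alb made up most of the hepatocyte sum, and without it the other 6 markers overlapped between the groups, at 23143 and 26849 CPM against 24208 to 37651 CPM. Fgb, the gene of fibrinogen β, went the other way at 10378 and 7867 CPM against 4614 to 6593 CPM, and did not pass the test. Apoa1 also had a fitted log2 fold change above 0, at 0.57, but overlapped between the groups. The 8 neutrophil markers summed to 116 and 76.7 CPM in the APAP libraries and 5.38 to 8.35 CPM in the saline libraries. Of 7 tested, 6 were called higher, beside 3.7% of all genes tested. The defining neutrophil gene Ly6g was at 0 in all saline libraries and at 4 and 8 counts in APAP1 and APAP3, close to the floor of 3 counts, and was not tested. Cholangiocyte markers summed to 347 and 356 CPM in the APAP libraries and 47.1 to 52.3 CPM in the saline libraries, mostly through Spp1. Of 5 tested, 2 were called higher, Sox9 and Spp1, beside 3.7% of all genes tested. Mesothelial markers summed to 29.1 CPM in APAP1, 5.62 CPM in APAP3 and 3.23 to 4.38 CPM in the saline libraries, of which Krt19, a keratin gene that is also in the cholangiocyte list, gave 23.6 CPM in APAP1 and 2.72 CPM in APAP3. Without Krt19 the mesothelial sum was 5.46 and 2.91 CPM against 1.80 to 2.33 CPM. The part of these cell types in the rise of Inhba, Tgfbr2 and Smad7, which were also higher in APAP1 than in APAP3, was not tested.

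Sums of stellate, sinusoidal endothelial and Kupffer cell markers overlapped between the groups, and none of these markers was called. Single markers did not overlap, in both directions, and all of these are given next. Among all genes tested, 44.1% did not overlap between the groups in either direction. Marco (Kupffer) measured 56.7 and 123 CPM in APAP1 and APAP3 against 7.51 to 30.9 CPM, and Vsig4 22.9 and 32.1 against 34.4 to 46.2 CPM. Pdgfrb (stellate) measured 18.7 and 16.3 against 9.95 to 10.6 CPM, and Ecm1 63.3 and 102 against 125 to 189 CPM. Lyve1 (endothelial) measured 15.6 and 30.5 against 4.84 to 14.5 CPM. Stellate cell markers summed to 180 and 323 CPM in APAP1 and APAP3 and 313 to 368 CPM in the saline libraries. Sinusoidal endothelial markers summed to 114 and 190 CPM against 122 to 194 CPM, and Kupffer cell markers to 292 and 504 CPM against 297 to 437 CPM. Monocyte markers summed to 462 and 411 CPM against 380 to 700 CPM, and this overlap rested on F10, which hepatocytes also express. Without F10 the other 7 monocyte markers summed to 302 and 207 CPM against 85.8 to 115 CPM. Much of this gap came from Cd14, at 206 and 52.2 CPM in APAP1 and APAP3 against 2.86 to 13.9 CPM. Lyz2 overlapped between the groups at 50.2 and 103 CPM against 64.8 to 98.5 CPM, and Ly6c2 overlapped as well. Of the 8 markers, 3 were called higher (Ccr2, Chil3 and Cd14), beside 3.7% of all genes tested. Lymphocyte markers stayed at or under 8.90 CPM and platelet markers at or under 6.35 CPM in every library.

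The level of Inhba was compared with that of every other tested gene by Pearson's r of log2(CPM + 0.5) over the 5 libraries, as a description without a test. The genes most like it were 1110002J07Rik (r = 0.998), S100a10 (r = 0.998) and Adck4 (r = 0.997), and 29 of 13733 genes reached an r of 0.99 or more. S100a10 measured 268 and 187 CPM in APAP1 and APAP3 and 54.5, 53.3 and 33.7 CPM in WT1, WT2 and WT3, the same order of libraries as for Inhba. 1110002J07Rik stayed at or under 0.940 CPM, close to the floor of detection. The points share their libraries and most of this likeness lies between the groups.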

How the data were processed

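Bulk RNA-Seq of mouse liver was analysed in 5 libraries, 2 of APAP and 3 of saline livers. The authors sequenced on an Illumina NovaSeq platform, obtained read counts per gene with HISAT2 and deposited them as raw counts without normalization. The submitters' processing notes name GRCm38 and mm10, while program versions, annotation and strand setting were not given in the sources used here. The 5 FPKM columns were not used. The columns named WT carry no sample number and were used as saline replicates.

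The analysis used edgeR 4.0.16 (R 4.3.3) on genes that passed filterByExpr with a minimum count of 10 and a minimum total of 15. Libraries were normalized by TMM and compared by the quasi-likelihood test with Benjamini-Hochberg adjustment over 13734 genes, called at an adjusted p under 0.05. A design written for 3 libraries per group was kept. The study used edgeR with a limit of 0.05 on P and 1.5 on the fold change, but which of its tests, and whether P was adjusted, is not stated. Alternatives were the exact test and the likelihood ratio test of edgeR, the Wald test of DESeq2 1.42.0, DESeq2's size factors in edgeR, library sizes alone, a count of at least 1 in any library or 10 in every library, and each library left out. Exonic lengths were taken from GENCODE within the gene bounds of the deposited table, where 34344 of 34745 identifiers matched. Sequences were RefSeq's (GRCm38.p6).

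The 9 genes and all gene lists were chosen with earlier results of these data known. Named were the 9 genes, every other pathway gene at an adjusted p under 0.05, the most abundant gene of each class by mean CPM, the 3 genes most like Inhba, and cell type and sex-linked markers. Col1a2 was added beside Col1a1 after seeing the data. Ltbp4 has 2 entries, and the one with more counts was used. The hepatocyte marker Tf and the endothelial marker Fcn3 were not found by name, and 1 gene of the pathway lists is not reported here. Depth was 13378445 to 15976339 counts per library, and intervals cover the spread between 5 libraries.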

Additional observations from a re-analysis of the deposited data

How the results depend on the processing

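The alternatives that kept the 5 libraries left the number of called members between 3 and 5 of 9, with 4 as reported, and none of the 4 called genes turned its direction. Fst joined the calls with the likelihood ratio test and with library sizes alone, and Tgfbr2 left them with DESeq2's size factors. With library sizes alone, which moved the median of all genes to 0.42, the log2 fold change turned to 0.12 for Inhbc, 0.15 for Gdf2, 0.17 for Bmpr2 and 0.013 for Nedd4l, all under that median. Leaving out single libraries gave 0 to 2 called members and 3 to 6 called genes among the 73 other pathway genes, against 8 as reported, with the lowest pathway count without WT2. With all 5 libraries, the pathway calls numbered 12 with the likelihood ratio test, the exact test, DESeq2 or library sizes alone, 8 with DESeq2's size factors, and 10 and 9 under the looser and the stricter filter. When single saline libraries were left out, the members called at the unadjusted thresholds numbered 5 or 6. Over all sets of 4 libraries, the log2 fold change ranged from −1.18 to 0.34 for Inhbc and from −0.43 to 0.59 for Tgfb1. It ranged from −1.09 to 0.053 for Nedd4l and from −0.0036 to 0.48 for Fn1, so that these 4 genes carry no direction. Over all genes, the calls rose from 993 to 1835 with the likelihood ratio test, 1776 with the exact test and 2093 with DESeq2, and lay between 165 and 922 without single libraries, where fewer samples were fitted. With a single APAP library, its spread is assumed to be that of the saline libraries. The cause of the other changes was not tested. No paired analysis was possible because the saline columns carry no sample numbers that match those of the APAP samples. The names WT1 to WT3 number the columns but do not show which saline sample each holds. The methods describe no pairing of APAP mice with saline mice, so none is assumed to have been lost. Depth was lowest for Inhba among the called members, with 21 to 35 counts per saline library.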
